A study of Homo sapiens with 24 samples.

Results

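The EGF receptor family was followed through 10 genes, which were found as the rows of the deposited gene count table that carry their symbols, whatever their values. These are 3 receptors (EGFR, ERBB2 and ERBB3) and 7 ligands (AREG, EREG, HBEGF, TGFA, EGF, BTC and EPGN). The table lists 60623 genes, and 30061 of them were counted at all. A filter on low counts left 14059 genes for testing, among them 9 of these 10 genes, all but EPGN.

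The cells were HT-29, an established human line of colon cancer epithelium. They were wild type (WT) or had GPRC5A, which encodes an orphan receptor of the class C family, knocked out (KO). Cells of each genotype spent 8 h in medium with 0.1% DMSO (the DMSO groups), 50 µM 7FTA (a compound that the labels name only by this abbreviation), TNFα, an inflammatory cytokine, at 10 ng/mL, or both agents together. Each of these 8 groups had 3 libraries, 24 in all. The labels give no clone for the KO cells, no word on separate cultures for the replicates, and no vehicle for the groups without DMSO in their name. Differences between clones or between vehicles therefore cannot be told apart from genotype and treatment, and the p-values rest on a spread between replicates that may be technical. The running numbers of the samples place the 3 libraries of each group together, and every library without TNFα ahead of every library with it. If these numbers give an order of handling, that order cannot be told apart from genotype, 7FTA or TNFα either.

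Ligands of this family are made as membrane-anchored precursors, cut from the cell surface by metalloproteases such as ADAM17, and bind EGFR on the same or on nearby cells. Bound receptors pair up and phosphorylate each other, and the signal passes through RAS, RAF, MEK and ERK and through PI3K. ERBB2 has no known ligand of its own and acts as the preferred partner, while ERBB3 has a weak kinase and binds neuregulins. In the gut the family drives epithelial growth and repair, and AREG and EREG are known for their expression in colorectal cancer.

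Total counts per library ran from 16782857 to 27247407. GPRC5A stood at 202 to 249 CPM (read counts scaled to the library total, adjusted with TMM factors) in WT libraries and at 64.7 to 80.6 CPM in KO libraries, so part of its RNA was still counted after the knock-out. All 8 gut epithelial markers of a fixed list were tested, and their summed level was 13824 to 19172 CPM, lower in every KO library (at most 15637) than in every WT library (at least 16690). KRT8 (7510 to 10699 CPM) and KRT18 (4397 to 6706 CPM) made up most of this sum, so it says little of the other markers. EPCAM had group means of 618 to 678 CPM, and CDX2 and CDX1 reached at most 3.44 and 1.01 CPM in a library. The part of the lower sum in the genotype differences was not tested. Of the markers of other cells, 2 of 6 for fibroblasts (sum 0.697 to 2.03 CPM, COL1A2 at 0), 1 of 6 for leukocytes (CD14, sum 2.02 to 8.56 CPM) and 1 of 4 for endothelium (sum 0.546 to 1.64 CPM, CDH5 at 0) had enough counts to be tested.

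Levels of different genes were compared as CPM per kilobase of exon (the union of the exons of a gene in GENCODE 29). In WT cells with DMSO the ligands AREG (28.8 ± 2.17 CPM per kilobase), TGFA (22.0 ± 0.802) and EREG (14.6 ± 0.699) stood at the top, next to the receptor EGFR at 13.2 ± 1.41 (SD, n = 3 each). ERBB3 had 7.02 ± 0.507 and ERBB2 6.00 ± 0.184 CPM per kilobase, an order that turned round when the longest coding transcript was taken as the length (10.7 and 12.9, a choice made after seeing the data). HBEGF followed with 3.80 ± 0.131 and BTC with 2.40 ± 0.408. EGF, the ligand that named the family, was the lowest of the tested members at 0.0681 ± 0.0311 CPM per kilobase, or 6 to 16 counts per library. The ligand RNA of these cells was thus mostly that of 3 genes, AREG, TGFA and EREG. EPGN, which encodes epigen, had 20 counts over the 24 libraries, was counted in 11 of them, and reached at most 5 counts in 1 library. Of these counts 7 lay in WT cells with DMSO, and each of the other 7 groups had between 1 and 4. No difference between groups was tested for it.

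**Figure D1:**
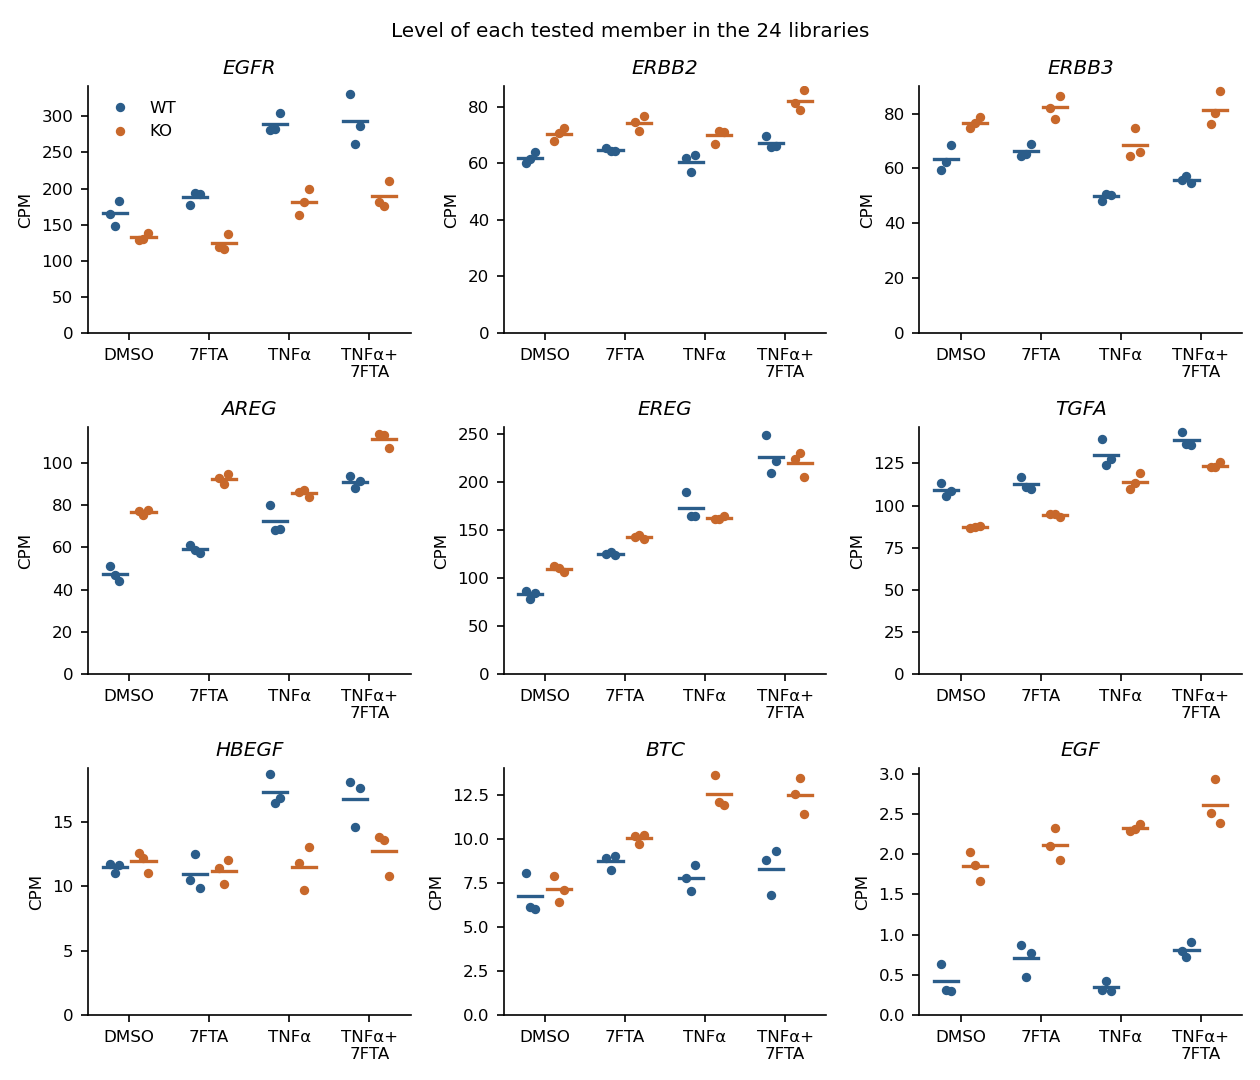
Level of the 9 tested members (CPM, y axes from 0) in each library by treatment, with WT libraries in blue and KO libraries in orange and a bar at the mean of 3 libraries. EGFR was highest in the 6 WT libraries with TNFα, alone or with 7FTA (262 to 331 CPM), and EGF in KO cells (1.67 to 2.94 CPM against 0.299 to 0.904 CPM in WT).

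The comparison of KO with WT cells asks how the family differs between the genotypes. With DMSO, 5 of 9 tested members were higher in KO cells (ERBB2, ERBB3, AREG, EREG, EGF), 2 were lower (EGFR, TGFA) and 2 did not pass the test (HBEGF, BTC). Of all tested genes 24.0% were called higher and 24.1% lower, so the genotypes differed broadly and the number of members called is to be read against that. In bulk RNA a lower level can mean fewer cells that make the RNA or less RNA per cell, which cannot be told apart. A gene was called at an adjusted p under 0.05 in edgeR's quasi-likelihood test, with Benjamini-Hochberg adjustment over all 14059 genes. The median log2 difference of the 9 members was 0.18, against 0.01 for all tested genes. With 7FTA again 5 members were higher and 2 lower, where 24.6% and 24.9% of all genes were called. With TNFα 5 were higher and 3 lower (25.5% and 25.1% of all genes), and with TNFα and 7FTA 5 and 3 (25.8% and 26.1%).

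Among the receptors, EGFR (chromosome 7, 55019021 to 55211628, GRCh38) was lower in KO cells and the partners ERBB2 and ERBB3 were higher. EGFR, which binds all of the ligands measured here, had 165, 148 and 183 CPM in the WT libraries with DMSO and 128, 131 and 138 CPM in KO. The groups did not overlap, and the log2 difference was -0.32 ± 0.10 (SE), 1.25-fold lower, with an adjusted p of 0.0154 in edgeR. It rested in part on single libraries, since adjusted p was 0.0889 without WT replicate 3 (log2 difference -0.24) and 0.0510 without KO replicate 1. With TNFα it had 282, 282 and 304 CPM in WT and 164, 182 and 199.9 CPM in KO (log2 -0.67 ± 0.10, adjusted p = 2.57e-05), and this call held without any 1 library. In cells with 7FTA the log2 difference was -0.60 ± 0.10 and with both agents -0.63 ± 0.10. The biological coefficient of variation that edgeR estimated, which leaves out counting noise, was 8.45% for EGFR against 3.29% to 8.24% for the other tested members. With counting noise included, the SD of EGFR replicates was 3.72% to 12.0% of the group mean. That of EGF, at its low counts, reached 45.6% in WT cells with DMSO.

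ERBB2 (chromosome 17, 39687914 to 39730426) had 60.2, 61.6 and 63.9 CPM in WT cells with DMSO and 68.0, 70.6 and 72.4 CPM in KO cells. The difference was small and its libraries did not overlap (log2 0.18 ± 0.05, 1.14-fold, adjusted p = 8.56e-04 in edgeR). Under the other treatments it lay between 0.20 ± 0.05 and 0.29 ± 0.05. Exons of ERBB2 overlap those of MIEN1 and PGAP3 on the opposite strand, which had 26362 and 13662 counts in all, and the strand setting of the counting is not given in the sources used here. Reads from the overlap may therefore have been given to the wrong gene or to none, so the level of ERBB2 may be too high or too low. ERBB3 (chromosome 12, 56076799 to 56103505) had 59.5, 62.4 and 68.5 CPM in WT and 74.7, 76.4 and 78.8 CPM in KO cells with DMSO (log2 0.27 ± 0.05, 1.21-fold, adjusted p = 4.21e-05). With TNFα it had 48.3, 50.6 and 50.5 CPM in WT and 64.4, 74.6 and 66.1 CPM in KO, a log2 difference of 0.45 ± 0.06, and with TNFα and 7FTA the difference was 0.54 ± 0.06. The mix of receptor RNA differed accordingly. Per kilobase, EGFR made up 50.3% ± 2.13 of the 3 receptors in WT and 40.9% ± 0.294 in KO cells with DMSO (SD, n = 3). These shares depend on the length taken. With the longest coding transcript, a choice made after seeing the data, EGFR had 16.9 and ERBB2 12.9 CPM per kilobase in WT cells with DMSO. In KO cells with DMSO ERBB2 then stood above EGFR, at 14.7 and 13.5 CPM per kilobase.

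**Figure D2:**
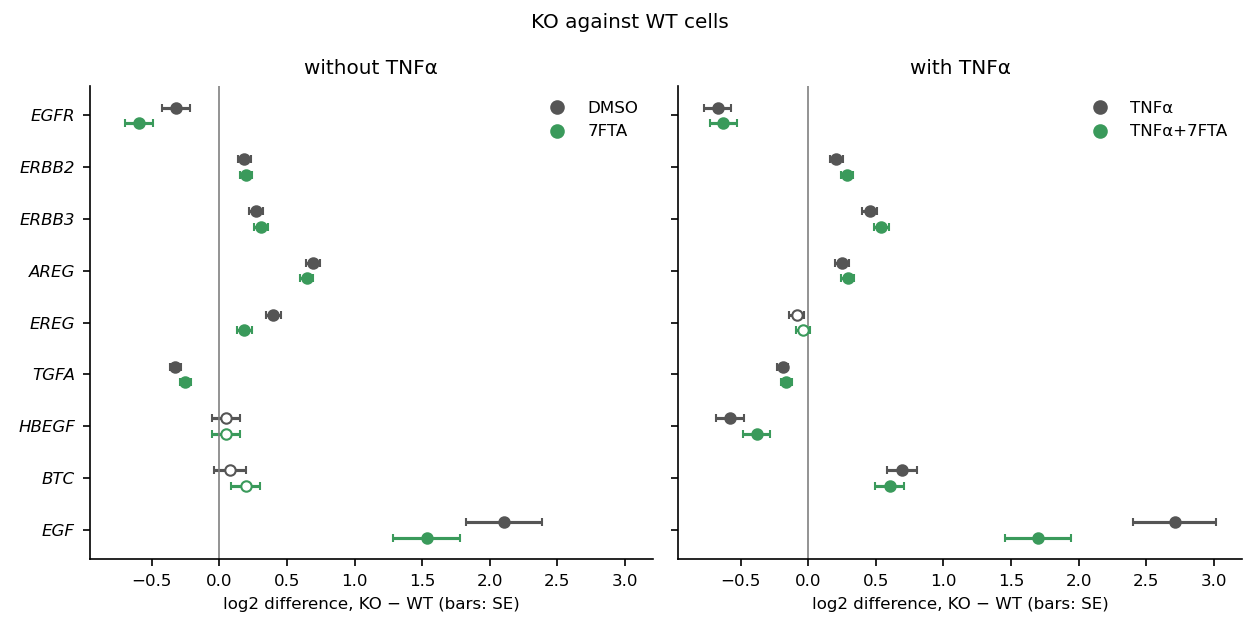
Log2 difference between KO and WT cells for the 9 tested members, without TNFα (left) and with it (right), in grey without and in green with 7FTA. Bars are 1 SE, filled points passed the test and open points did not; EGFR and TGFA lie below 0 under all 4 treatments and ERBB2, ERBB3, AREG and EGF above 0.

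Ligands moved both ways with genotype. AREG, which encodes the low-affinity ligand amphiregulin, had 51.4, 47.0 and 44.3 CPM in WT cells with DMSO and 77.5, 75.2 and 77.8 CPM in KO cells. Every KO library was above every WT library, with a log2 difference of 0.69 ± 0.05 (1.62-fold, adjusted p = 4.38e-16 in edgeR). EREG, which encodes epiregulin, had 86.3, 78.7 and 84.7 CPM in WT and 112, 111 and 107 CPM in KO cells (log2 0.40 ± 0.06, 1.32-fold, adjusted p = 1.08e-06). For both genes the gap was narrower in cells with TNFα: 0.25 ± 0.05 for AREG, which still passed (adjusted p = 5.51e-05), and -0.09 ± 0.05 for EREG, which did not (adjusted p = 0.190). With TNFα the EREG libraries of the genotypes overlapped, at 189, 164 and 165 CPM in WT and 162, 161 and 165 CPM in KO.

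TGFA, which encodes transforming growth factor alpha (chromosome 2, 70447280 to 70554193), was lower in KO cells. It had 113, 106 and 108 CPM in WT and 86.4, 87.4 and 87.7 CPM in KO cells with DMSO (log2 -0.33 ± 0.04, 1.25-fold lower, adjusted p = 4.47e-09 in edgeR). The groups did not overlap here or under the other treatments, where the log2 difference lay between -0.25 ± 0.04 (7FTA) and -0.16 ± 0.04 (both agents). The most abundant ligands thus had different weights in the genotypes. Per kilobase and with DMSO, AREG made up 40.2% ± 1.39 of the ligand RNA in WT and 51.7% ± 0.701 in KO cells, TGFA 30.7% ± 0.682 and 19.5% ± 0.373, and EREG 20.3% ± 0.846 and 21.3% ± 0.515 (SD, n = 3).

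HBEGF and BTC, whose proteins heparin-binding EGF and betacellulin can also bind ERBB4, differed between genotypes in the cells with TNFα. HBEGF (chromosome 5, 140332843 to 140346631) had 11.7, 11.0 and 11.7 CPM in WT and 12.6, 12.2 and 11.0 CPM in KO cells with DMSO, with overlapping libraries (log2 0.05 ± 0.10, adjusted p = 0.744 in edgeR). With TNFα it had 18.7, 16.5 and 16.8 CPM in WT and 11.8, 9.73 and 13.0 CPM in KO, without overlap (log2 -0.58 ± 0.10, 1.49-fold lower, adjusted p = 7.55e-06). BTC went the other way. Its libraries overlapped with DMSO, at 8.08, 6.17 and 6.02 CPM in WT and 7.89, 6.44 and 7.11 CPM in KO (log2 0.07 ± 0.12, adjusted p = 0.633). With TNFα the values were 7.82, 7.03 and 8.56 CPM in WT and 13.7, 12.1 and 11.9 CPM in KO (log2 0.69 ± 0.11, 1.62-fold higher, adjusted p = 1.14e-06).

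EGF itself (chromosome 4, 109912884 to 110012266) had the widest genotype difference of the members at a very low level. With DMSO it had 0.637, 0.316 and 0.299 CPM in WT cells, from 16, 6 and 8 counts, and 2.03, 1.86 and 1.67 CPM in KO cells, from 39, 37 and 41 counts. The log2 difference was 2.11 ± 0.28 (4.31-fold, adjusted p = 1.53e-08 in edgeR). Under the other treatments it lay between 1.53 ± 0.25 (7FTA) and 2.71 ± 0.31 (TNFα), and in no pairing did WT and KO libraries overlap.

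The tested members lie on chromosomes 2, 4, 5, 7, 12 and 17, and the genes around them were compared between the genotypes too. Over the 48 to 50 nearest other tested genes of each member, the median log2 difference between KO and WT cells lay between -0.09 (ERBB2 with DMSO) and 0.11 (ERBB3 with DMSO). The difference of the member itself was 0.18 for ERBB2 and 0.27 for ERBB3. The part of the surrounding stretch in the difference of any member was not tested.

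TNFα raised more members than it lowered in each genotype. In WT cells with TNFα against DMSO, 5 of 9 members rose (EGFR, AREG, EREG, HBEGF, TGFA) and ERBB3 fell, where 19.5% of all tested genes rose and 18.9% fell. In KO cells 5 also rose (EGFR, AREG, EREG, TGFA, BTC) and ERBB3 fell, against 16.1% and 14.8% of all genes. With 7FTA present in both groups, TNFα raised 5 and lowered 1 in WT cells (17.7% and 16.3% of all genes), and raised 6 and lowered 0 in KO cells (16.2% and 15.0%). The median log2 change of the members was 0.25 in WT and 0.34 in KO cells without 7FTA, against -0.01 for all genes in each.

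**Figure D3:**
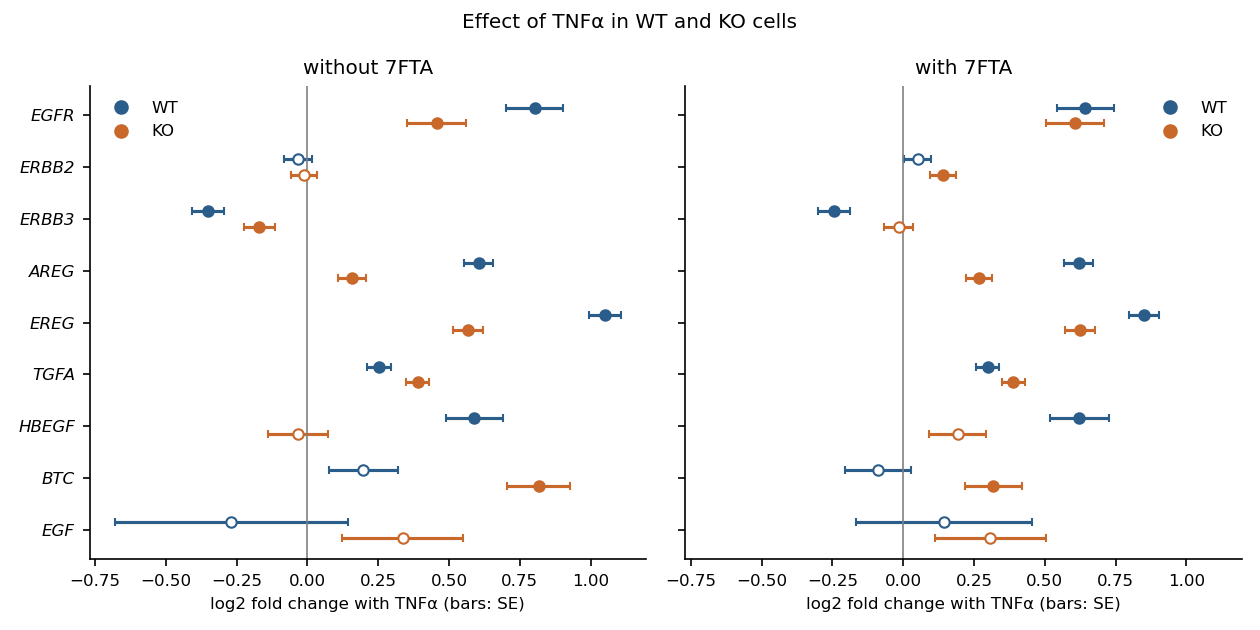
Log2 fold change with TNFα for the 9 tested members, without 7FTA (left) and with it (right), in WT (blue) and KO cells (orange). Bars are 1 SE, filled points passed the test; without 7FTA, AREG and EREG rose more in WT than in KO cells, and HBEGF rose in WT cells and was at -0.03 in KO cells.

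EREG had the largest rise of the members with TNFα in WT cells, from 86.3, 78.7 and 84.7 to 189, 164 and 165 CPM (log2 1.05 ± 0.06, 2.07-fold, adjusted p = 3.86e-15 in edgeR). In KO cells it rose from 112, 111 and 107 to 162, 161 and 165 CPM (log2 0.57 ± 0.05, 1.48-fold). The difference between these changes was itself tested and was -0.48 ± 0.08 (adjusted p = 1.76e-04). AREG rose in WT cells from 51.4, 47.0 and 44.3 to 80.3, 68.2 and 68.5 CPM (log2 0.60 ± 0.05, 1.52-fold). In KO cells, which started higher, it rose from 77.5, 75.2 and 77.8 to 86.5, 87.1 and 83.9 CPM (log2 0.16 ± 0.05, adjusted p = 0.0105, and 0.0515 without KO DMSO replicate 2). The change in KO was lower than in WT by 0.45 ± 0.07 on the log2 scale (adjusted p = 3.05e-05), and with 7FTA in both groups by 0.35 ± 0.07 (adjusted p = 0.00124). For EREG the same difference with 7FTA in both groups was -0.23 ± 0.07 and did not pass (adjusted p = 0.127). It passed with no filter on low counts (adjusted p = 0.00654) and without WT TNFα with 7FTA replicate 2 (-0.27, adjusted p = 0.0295). Under TNFα the EREG libraries of the genotypes overlapped, and those of AREG did not.

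HBEGF, a heparin-binding ligand, rose with TNFα in WT cells (log2 0.59 ± 0.10, 1.50-fold, adjusted p = 5.60e-06 in edgeR) and stood at -0.03 ± 0.11 in KO cells (adjusted p = 0.853). The KO change was lower by 0.62 ± 0.15 (adjusted p = 0.00660). BTC rose in KO cells (log2 0.82 ± 0.11, 1.76-fold, adjusted p = 4.13e-08) and was at 0.20 ± 0.12 in WT cells (adjusted p = 0.206). The difference of these changes was 0.62 ± 0.16 (adjusted p = 0.0187). Without WT DMSO replicate 1, the library with the highest BTC of its group, it was 0.46 with an adjusted p of 0.147, and the WT change became 0.35 and passed (adjusted p = 0.0313). It also missed the threshold without KO DMSO replicate 2, WT TNFα replicate 2 or KO TNFα replicate 1 (adjusted p = 0.0750, 0.0771 and 0.0660). Of all tested genes 2.05% had a higher and 1.50% a lower TNFα effect in KO cells, and 1 and 3 of the 9 members did. With 7FTA in both groups these shares were 1.58% and 0.982% of all genes, with 0 and 1 members.

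TGFA rose with TNFα by 0.25 ± 0.04 in WT cells, to 139, 124 and 128 CPM, and by 0.39 ± 0.04 in KO cells, to 110.0, 113 and 119 CPM (log2, adjusted p = 1.36e-06 and 7.93e-11 in edgeR). The difference between the genotypes was 0.14 ± 0.06 with an adjusted p of 0.234. EGF did not pass in either genotype: the log2 changes were -0.27 ± 0.41 in WT and 0.34 ± 0.21 in KO cells, on 5 to 53 counts per library in the groups with TNFα alone.

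Receptors split with TNFα. EGFR rose by 0.80 ± 0.10 in WT (1.74-fold, adjusted p = 4.81e-06 in edgeR) and by 0.46 ± 0.10 in KO cells (1.37-fold, adjusted p = 0.00232), without overlap of the libraries. The 2 changes differed by -0.35 ± 0.14, which did not pass (adjusted p = 0.263). ERBB2 stood at -0.03 ± 0.05 and -0.01 ± 0.05 and did not pass. ERBB3, the neuregulin receptor, fell by 0.35 in WT cells (SE 0.06, adjusted p = 2.14e-06) and by 0.17 in KO cells (SE 0.05, adjusted p = 0.0136). The fall in KO cells did not pass without KO DMSO replicate 3, KO TNFα replicate 1 or KO TNFα replicate 3 (adjusted p = 0.0717, 0.110 and 0.0735). Per kilobase, EGFR took 67.0% ± 0.518 of the receptor RNA in WT cells and 50.3% ± 2.29 in KO cells with TNFα (SD, n = 3). These shares too depend on the length taken. By the longest coding transcript, EGFR and ERBB2 had 29.5 and 12.6 CPM per kilobase in WT and 18.5 and 14.6 in KO cells with TNFα.

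When 7FTA was in the medium of both groups, TNFα changed EGFR by 0.64 ± 0.10 in WT and 0.61 ± 0.10 in KO cells, AREG by 0.62 ± 0.05 and 0.27 ± 0.05, EREG by 0.85 ± 0.05 and 0.62 ± 0.05, and TGFA by 0.30 ± 0.04 and 0.39 ± 0.04 on the log2 scale. HBEGF rose in WT cells by 0.62 ± 0.10 and was at 0.19 ± 0.10 in KO cells (adjusted p = 0.148 in edgeR). Without KO TNFα with 7FTA replicate 3 the KO value was 0.29 and passed (adjusted p = 0.0297). ERBB3 fell by 0.25 in WT cells (SE 0.06) and stood at -0.02 ± 0.05 in KO cells. The difference of these HBEGF changes did not pass (-0.43 ± 0.14, adjusted p = 0.118), nor did that of ERBB3 (0.23 ± 0.08, adjusted p = 0.113). Both were decided by single libraries: HBEGF passed without WT TNFα with 7FTA replicate 2 (-0.52, adjusted p = 0.0429) and ERBB3 without KO TNFα with 7FTA replicate 1 (0.28, adjusted p = 0.0410). ERBB2 and BTC passed in KO cells, at 0.14 ± 0.04 (adjusted p = 0.0125) and 0.32 ± 0.10 (adjusted p = 0.0117), and not in WT cells, at 0.05 ± 0.05 and -0.09 ± 0.12. These genotype differences did not pass either (adjusted p = 0.609 and 0.184). Both calls in KO cells rested on single libraries: ERBB2 had an adjusted p of 0.0945 without KO 7FTA replicate 2 and 0.0975 without KO TNFα with 7FTA replicate 3, and BTC 0.0813 without KO TNFα with 7FTA replicate 2.

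Cells with 7FTA were set against cells with DMSO to see the effect of the compound alone. It changed few genes, and AREG and EREG were among them in each genotype. The DMSO libraries are the same ones that TNFα was compared with. In WT cells 2 of 9 members rose and 0 fell, against 1.44% and 0.605% of all tested genes. In KO cells 3 rose (AREG, EREG, BTC) and 0 fell, against 1.45% and 0.932%. These shares rest on 288 genes in WT and 335 in KO cells, and leaving out 1 library at a time left 182 to 214 and 196 to 232. The promoters of AREG and EREG, which lie on the plus strand of chromosome 4, are shown because these 2 ligands rose with 7FTA in WT and in KO cells. Each sequence is the 250 bases before the RefSeq start site (GRCh38.p14), 5′ to 3′, at chr4:74444886-74445135 for AREG and chr4:74364895-74365144 for EREG, with capitals marking a cyclic AMP response element (CRE, TGACGTCA).
AREG: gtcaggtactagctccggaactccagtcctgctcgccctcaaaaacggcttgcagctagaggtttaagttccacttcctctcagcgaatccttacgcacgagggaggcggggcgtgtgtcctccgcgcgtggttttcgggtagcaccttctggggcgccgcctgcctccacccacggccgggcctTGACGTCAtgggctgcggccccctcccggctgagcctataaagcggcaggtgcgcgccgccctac
EREG: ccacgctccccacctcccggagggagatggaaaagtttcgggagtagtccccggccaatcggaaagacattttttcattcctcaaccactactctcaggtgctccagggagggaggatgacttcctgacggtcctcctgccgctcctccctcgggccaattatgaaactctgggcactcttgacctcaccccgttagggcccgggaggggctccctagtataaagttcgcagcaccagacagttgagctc

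Both strands of these windows were searched for 4 motifs: CRE, the AP-1 site TGANTCA, the dioxin response core TNGCGTG of the aryl hydrocarbon receptor, and the NF-κB consensus. AREG had the CRE at 65 to 58 bases before the start, and EREG had no match to any of the 4. A CRE occurred in 1.65% of 35116 promoters of the same length, an AP-1 site in 6.57%, the dioxin core in 4.52% and the NF-κB consensus in 5.21%. Of the 9 members found in the table (not ERBB3), AP-1 sites were found for EGFR (at 1 of 2 start sites), ERBB2 and EGF, the NF-κB consensus for TGFA (at 1 of 2 start sites) and the dioxin core for 0. These matches are descriptions of letters in a window and were not tested for use in these cells.

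With 7FTA, EREG rose in WT cells from 86.3, 78.7 and 84.7 to 126, 127 and 124 CPM, with no overlap (log2 0.59 ± 0.06, 1.51-fold, adjusted p = 4.71e-08 in edgeR). In KO cells it rose from 112, 111 and 107 to 143, 145 and 140.5 CPM (log2 0.38 ± 0.05, 1.30-fold, adjusted p = 7.12e-05). AREG, its neighbour, went from 51.4, 47.0 and 44.3 to 61.2, 59.0 and 57.5 CPM in WT (log2 0.32 ± 0.05, 1.25-fold, adjusted p = 7.24e-05). In KO cells it went from 77.5, 75.2 and 77.8 to 93.0, 90.2 and 94.7 CPM (log2 0.27 ± 0.05, 1.21-fold, adjusted p = 2.89e-04). For AREG and EREG alike, each 7FTA library was above each DMSO library of its genotype. BTC rose in KO cells, from 7.89, 6.44 and 7.11 to 10.2, 9.75 and 10.2 CPM (log2 0.49 ± 0.11, adjusted p = 0.00566, and 0.0717 without KO DMSO replicate 2). In WT cells it had 8.93, 8.26 and 9.06 CPM with 7FTA, above all DMSO libraries, and did not pass (log2 0.37 ± 0.11, adjusted p = 0.0790, and 0.0127 without WT DMSO replicate 1). EGFR, ERBB2, ERBB3, HBEGF, TGFA and EGF did not pass in either genotype, with log2 changes from -0.09 ± 0.10 (EGFR in KO) to 0.77 ± 0.33 (EGF in WT, adjusted p = 0.311).

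**Figure D4:**
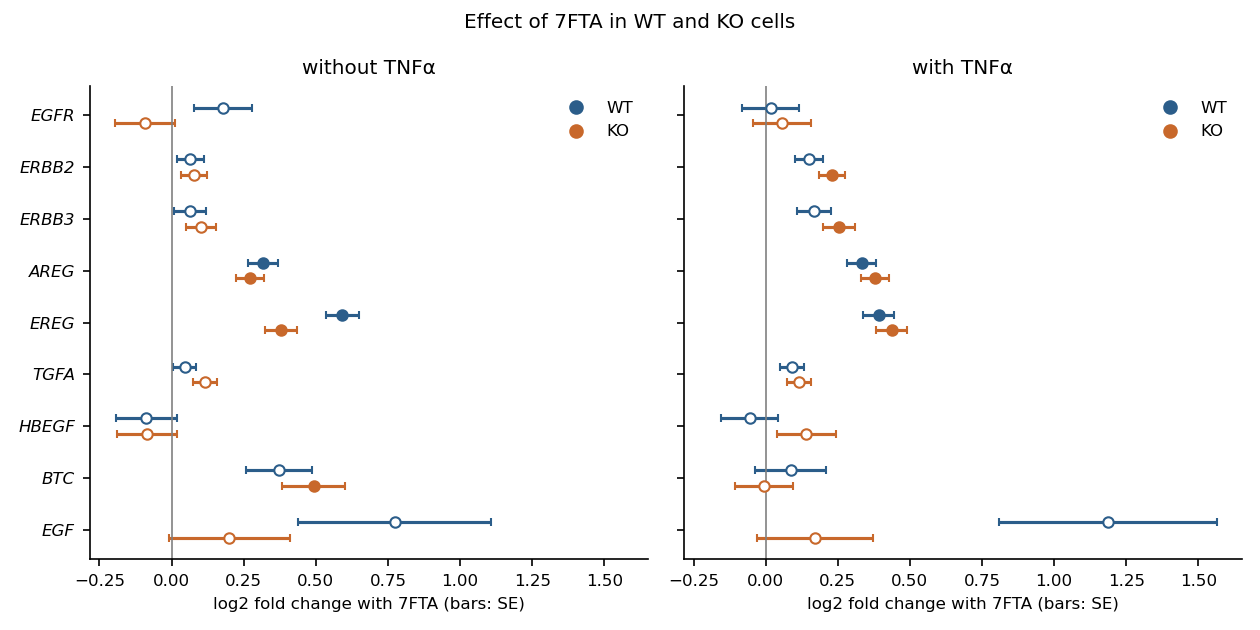
Log2 fold change with 7FTA for the 9 tested members, without TNFα (left) and with it (right), in WT (blue) and KO cells (orange). Bars are 1 SE, filled points passed the test; AREG and EREG lie between 0.27 and 0.59 in all 4 comparisons, while EGF has the widest bars.

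Added to TNFα, 7FTA raised AREG and EREG further. In WT cells 2 of 9 members rose and 0 fell, against 2.99% and 2.55% of all genes, and in KO cells 4 rose and 0 fell, against 3.99% and 3.53%. AREG reached 93.6, 88.1 and 91.6 CPM in WT cells with both agents (log2 0.33 ± 0.05 over TNFα alone, adjusted p = 8.33e-06 in edgeR) and 114, 113 and 107 CPM in KO cells (log2 0.38 ± 0.05, adjusted p = 8.69e-08). EREG reached 249, 209 and 222 CPM in WT (log2 0.39 ± 0.05, adjusted p = 1.43e-05, and 0.0688 when the 2 groups were fitted alone) and 224, 231 and 206 CPM in KO cells (log2 0.44 ± 0.05, adjusted p = 1.13e-06). ERBB2 and ERBB3 rose in KO cells by 0.23 ± 0.05 and 0.25 ± 0.05 (adjusted p = 4.11e-04 and 0.00103), to 81.2, 78.7 and 85.9 CPM and to 76.0, 80.3 and 88.1 CPM. In WT cells they were at 0.15 ± 0.05 and 0.17 ± 0.06 and did not pass (adjusted p = 0.0591 and 0.0902), though ERBB3 did with no filter on low counts (adjusted p = 0.0484). Whether the effect on these receptors differed between the genotypes was not tested. EGF had the largest log2 change of the members in WT cells, 1.19 ± 0.38 on 5 to 16 counts per library. Its libraries did not overlap, and it just missed the threshold (adjusted p = 0.0520). BTC, which had risen with 7FTA in KO cells without TNFα, was at -0.01 ± 0.10 in KO cells with TNFα (adjusted p = 0.985).

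Whether the 7FTA effect depended on genotype, in cells without TNFα, or on TNFα, in each genotype, was tested for the 9 tested members. Its dependence on genotype in cells with TNFα was not tested. The 7FTA effect without TNFα differed between the genotypes for 0 members and 0% of all genes in edgeR. At an unadjusted p under 0.05 there were 1 member (EREG, -0.21 ± 0.08) and 495 genes, and DESeq2 called 0 members. The 7FTA effect with TNFα against without it differed for 0 members in WT and for 0 in KO cells. Of all genes 0.277% and 0.576% were called there, and DESeq2 again called 0 members. At an unadjusted p under 0.05 in edgeR, 1 of 9 members passed in WT, where 1147 of 14059 genes did. In KO cells 3 of 9 members passed, where 1415 of 14059 genes did. Without WT TNFα with 7FTA replicate 1, EREG passed in WT cells (-0.28, adjusted p = 0.0408). The smallest p of these tests was that of BTC in KO cells, -0.50 ± 0.15 with an adjusted p of 0.134.

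Summed over the 7 ligands, RNA per kilobase stood at 71.7 ± 3.78 in WT cells with DMSO, 87.5 ± 2.07 with 7FTA, 109 ± 8.67 with TNFα and 132 ± 6.81 with both (CPM per kilobase, SD, n = 3). In KO cells the sums were 90.2 ± 1.13, 108 ± 1.16, 112 ± 0.479 and 140.2 ± 4.92. The lowest sum was thus that of WT cells with DMSO and the highest that of KO cells with both agents. The sum of the 3 receptors varied less, from 25.9 ± 0.829 in KO cells with DMSO to 36.1 ± 2.96 in WT cells with both agents.

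Over the 8 groups, each member had its own order of levels. EGFR was highest in WT cells with TNFα and 7FTA (mean 293 CPM) and with TNFα (289 CPM), which overlapped each other and no other group, and lowest in KO cells with 7FTA (124 CPM). ERBB3 ran the other way, from 82.2 CPM in KO cells with 7FTA to 49.8 CPM in WT cells with TNFα, and ERBB2 from 82.0 CPM in KO cells with both agents to 60.6 CPM in WT cells with TNFα. The 2 lowest groups of ERBB3, WT with both agents and WT with TNFα, overlapped neither each other nor the next group up. AREG ranked from 111 CPM in KO cells with both agents to 47.5 CPM in WT cells with DMSO, with overlap only between KO with 7FTA and WT with both agents and between KO with DMSO and WT with TNFα. For EREG the order followed treatment before genotype: both agents (227 CPM in WT and 220.1 in KO, overlapping), TNFα (173 and 163, overlapping), 7FTA (143 in KO and 126 in WT) and DMSO (109.9 in KO and 83.2 in WT), with no overlap between neighbours other than those 2 pairs. TGFA ran from 139 CPM in WT cells with both agents to 87.2 CPM in KO cells with DMSO. In HBEGF the 2 WT groups with TNFα (17.3 and 16.7 CPM) stood above the other 6 groups (10.9 to 12.7 CPM), and each of these 6 overlapped the next. BTC had KO cells with TNFα (12.6 CPM) and with both agents (12.5 CPM) at the top, overlapping, and WT cells with DMSO at the bottom (6.76 CPM). All 4 KO groups of EGF (1.85 to 2.62 CPM) were above all 4 WT groups (0.347 to 0.808 CPM).

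Further genes of the pathway were read from lists by role, which were chosen with earlier results of these data known. Of 4 neuregulin genes and their receptor ERBB4, 0 of 5 passed the filter: ERBB4 and NRG1 had 1 count each over all libraries, NRG2 had 0, NRG3 had 2 and NRG4 had 115. Of 6 genes for ligand shedding, all tested, 4 rose and 1 fell with TNFα in WT cells and likewise 4 and 1 in KO cells, with a median log2 change of 0.28 and 0.36 against -0.01 for all genes. The shares of all genes were 19.5% and 18.9% in WT and 16.1% and 14.8% in KO cells. RHBDF2, which encodes the iRhom2 partner of ADAM17, rose by 0.86 ± 0.06 in each genotype, and ADAM17, the sheddase of AREG, EREG, TGFA and HBEGF, by 0.65 ± 0.05 in WT and 0.56 ± 0.05 in KO cells (log2, edgeR). Between genotypes with DMSO 1 of the 6 was higher and 5 were lower in KO cells (24.0% and 24.1% of all genes), with a median of -0.17 against 0.01 for all genes. RHBDL2, a rhomboid protease, was at -0.82 ± 0.11 (1.76-fold lower, adjusted p = 2.25e-08). With 7FTA against DMSO 0 of the 6 were called in either genotype. Of all genes 1.44% rose and 0.605% fell there in WT cells, and 1.45% and 0.932% in KO cells. ADAM17 had the smallest p of the list there, with log2 changes of 0.12 ± 0.05 in WT and 0.11 ± 0.05 in KO cells (adjusted p = 0.192 and 0.287).

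Of 10 genes that restrain the receptors, 4 were higher and 5 lower in KO cells with DMSO, where 24.0% and 24.1% of all genes were called, and the median log2 difference of the list was -0.02. PTPN1, a phosphatase, was at -0.34 ± 0.04 and LRIG3, of a family of membrane proteins that bind the receptors, at 0.55 ± 0.08. LRIG1, which promotes loss of the receptors from the cell surface, fell with 7FTA in WT cells (-0.38 ± 0.06, adjusted p = 1.54e-04 in edgeR), the 1 gene of the list called there, and was at -0.21 ± 0.07 in KO cells (adjusted p = 0.0932). With 7FTA against DMSO 1.44% of all genes rose and 0.605% fell in WT cells, and 1.45% and 0.932% in KO cells. Of 22 signal relay genes 5 were higher and 6 lower in KO cells with DMSO, a share near those 24.0% and 24.1%. With TNFα in WT cells 8 rose and 4 fell, against 19.5% and 18.9% of all genes, and the median log2 change was 0.06. With 7FTA against DMSO 0 of the 22 were called in either genotype, against the small shares of all genes given above for that comparison. Their median log2 difference between the genotypes with DMSO was 0.01, and that of all genes 0.01.

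The list of ERK response genes, whose RNA commonly follows ERK activity, held 11 tested genes. With DMSO, 2 were higher and 7 lower in KO cells (24.0% and 24.1% of all genes), with a median log2 difference of -0.29 against 0.01 for all genes. PHLDA1 was at -0.82 ± 0.04 (1.76-fold lower, adjusted p = 4.84e-24 in edgeR) and ETV5 at 0.63 ± 0.07. TNFα raised 4 and lowered 6 of the 11 in WT cells (19.5% and 18.9% of all genes) and raised 3 and lowered 3 in KO cells (16.1% and 14.8%). The median log2 change of the list was -0.15 in WT and -0.0046 in KO cells, against -0.01 for all genes in each. DUSP5, a phosphatase of ERK, rose with TNFα by 1.24 ± 0.09 in WT and by 0.80 ± 0.08 in KO cells. With 7FTA against DMSO 0 rose and 1 fell in each genotype: DUSP6 in WT (-0.26 ± 0.05, adjusted p = 4.60e-04) and SPRY2 in KO cells (-0.30 ± 0.07, adjusted p = 0.00643). Of all genes 1.44% rose and 0.605% fell there in WT cells, and 1.45% and 0.932% in KO cells.

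Of the 7 ligand genes, EPGN (74308473 to 74315307), EREG (74365143 to 74388751), AREG (74445134 to 74455009) and, on the minus strand, BTC (74744759 to 74794686) share a stretch of chromosome 4 with a cluster of CXC chemokines. Within 1000000 bases of the start of AREG, 41 genes were in the table and 12 were tested: 3 members and 9 others. TNFα raised 6 of the 9 others in each genotype and lowered 2 in WT and 1 in KO cells, where 19.5% and 18.9% of all genes were called in WT and 16.1% and 14.8% in KO cells. CXCL8, a chemokine that draws neutrophils, rose by 5.47 ± 0.11 in WT and 6.06 ± 0.12 in KO cells (log2), against 0.60 and 0.16 for AREG. With 7FTA alone 0 of the 9 were called in either genotype. Of all genes 1.44% rose and 0.605% fell there in WT cells, and 1.45% and 0.932% in KO cells. When 7FTA was added to TNFα, 0 of the 9 rose, against 2.99% of all genes in WT and 3.99% in KO cells. Of the 9, 3 fell in WT (CXCL8, CXCL1, CXCL3) and 4 in KO cells (these and CXCL2), against 2.55% and 3.53% of all genes. CXCL3 was at -0.90 ± 0.08 in WT and -0.86 ± 0.08 in KO cells, and CXCL1 at -0.49 ± 0.07 and -0.67 ± 0.07. In the same cells EREG was at 0.39 ± 0.05 and 0.44 ± 0.05 and AREG at 0.33 ± 0.05 and 0.38 ± 0.05.

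**Figure D5:**
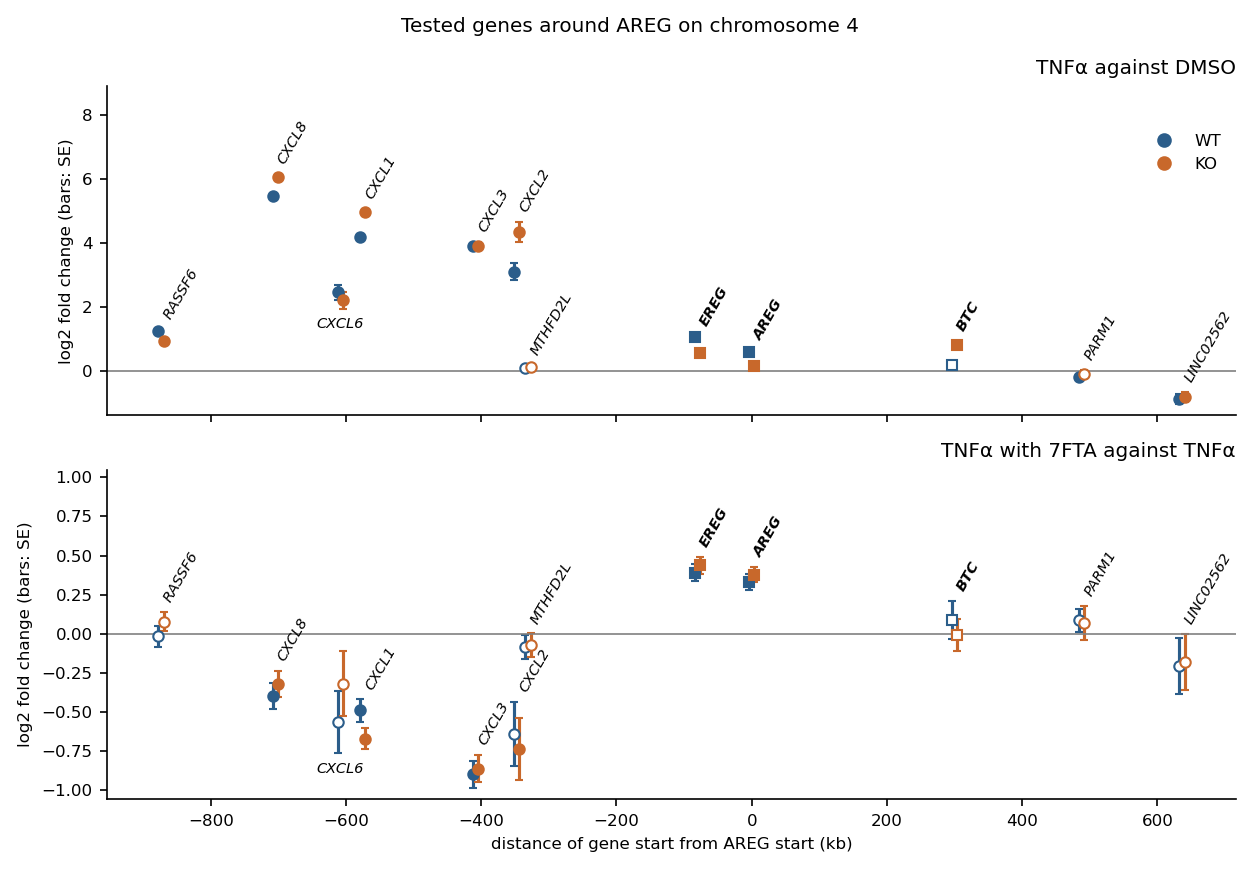
Log2 fold change of the 12 tested genes within 1000000 bases of AREG by distance of their start from that of AREG (kilobases), for TNFα against DMSO (top) and for 7FTA added to TNFα (bottom), in WT (blue) and KO cells (orange). Bars are 1 SE, squares are members of the EGF family, filled symbols passed the test; in the lower plot EREG and AREG lie above 0 and CXCL8, CXCL1 and CXCL3 below 0.

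Between genotypes with DMSO, 1 of the 9 other genes was higher and 6 were lower in KO cells, where 24.0% and 24.1% of all genes were called, and EREG and AREG were higher. PARM1, 488 kilobases beyond AREG, was at -2.07 ± 0.09, CXCL8 at -1.05 ± 0.14 and RASSF6 at 0.60 ± 0.07. Genes of this stretch thus differed in either direction between the genotypes.

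The genes whose levels followed a member most closely were ranked by Pearson's r of log2 CPM over the 24 libraries, as a description with no test, since the libraries share 8 groups and the group means set most of r. CDCP1 was closest to EGFR (r = 0.981), JUP to ERBB2 (0.932) and PCDH1 to ERBB3 (0.971). Among the ligands, DHRS9 was closest to AREG (0.966), CSPG4 (0.964) and GCLM (0.962) to EREG, SDCBP to TGFA (0.966) and LIPA to EGF (0.962). The closest genes of HBEGF and BTC, TNIP2 (0.873) and ITGB6 (0.861), had a lower r.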

How the data were processed

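Poly(A) RNA of 24 libraries was sequenced as single-end reads, per the labels' protocols. The authors deposited raw gene counts, 1 column per library, and these were used as deposited. According to the submitters' processing notes, reads were handled with STAR (2.6.1d), featureCounts (1.6.4) and DESeq2 (1.20.0) on GRCh38. The strand setting is not given in the sources used here. Groups and replicate numbers came from the sample titles. The members and the gene lists were chosen with earlier results of these data known.

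With R 4.3.3 and edgeR 4.0.16, filterByExpr on the 8 groups kept 14059 of 60623 genes. TMM factors ran from 0.944 to 1.05. A robust quasi-likelihood model with a mean for each of the 8 groups used all 24 libraries together (common biological coefficient of variation 4.06%). The 12 comparisons between groups and 5 interactions were tested two-sided, with Benjamini-Hochberg adjustment over the 14059 genes and a threshold of 0.05. Each SE was obtained from the log2 fold change and the F statistic. The steps were tested on simulated data. Positions and exon lengths are from GENCODE 29, matched by identifier (13992 of the tested genes), and promoters from RefSeq (9 of the 10 members).

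By the rule for names, all 10 members, the 2 genes of each list with the smallest p in a comparison, the tested genes within 1000000 bases of AREG and the 3 tested genes most correlated with each member could be named. The neuregulins and ERBB4 are named with their counts. Libraries of a group differed by more than counting noise: over 24 such pairs, the chi-square of their counts was 2.07 to 6.63 times its degrees of freedom. This cannot tell separate cultures from technical replicates, since either can add such spread. Alternatives were DESeq2's size factors, no filter, DESeq2 1.42.0 as the test, the replicate number as a block, the 2 groups alone, and each library left out.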

Additional observations from a re-analysis of the deposited data

Results flagged for a closer look

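The effect of TNFα differed between KO and WT cells for 4 ligands when no 7FTA was present, by edgeR's interaction test with adjustment over all tested genes. The log2 change in KO minus that in WT was -0.45 ± 0.07 for AREG (0.16 in KO, 0.60 in WT), -0.48 ± 0.08 for EREG (0.57 and 1.05), -0.62 ± 0.15 for HBEGF (-0.03 and 0.59) and 0.62 ± 0.16 for BTC (0.82 and 0.20), each ± SE with 3 libraries per group. The BTC difference did not pass without WT DMSO replicate 1, KO DMSO replicate 2, WT TNFα replicate 2 or KO TNFα replicate 1 (adjusted p = 0.147, 0.0750, 0.0771 and 0.0660), and without the first of these its WT change was 0.35 and passed (adjusted p = 0.0313). With 7FTA in both groups, AREG again differed, by -0.35 ± 0.07 (0.27 and 0.62). The starting level with DMSO was higher in KO than in WT cells for AREG and EREG, and its part in these differences was not tested.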

How the results depend on the processing

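Of the members' values, 70 passed the threshold, 10 passed only in an alternative and 73 in none. Over 925 alternative values of the first 2 kinds, 0 reversed, 15 lost and 16 gained the call, and 62 of the 70 kept it in every alternative run. Of the 73 that passed in none, 28 changed sign in some alternative. The number of members called moved by over 1.5 times in 3 comparisons. For 7FTA added to TNFα in WT cells it was 2, with the replicate block 4 and with the 2 groups alone 1. For the TNFα effect in KO minus WT with 7FTA it was 1, with the replicate block 3, with no filter on low counts 2, and from 1 to 3 when each library was left out. For the 7FTA effect with TNFα minus without it in WT cells it was 0, and from 0 to 1 when each library was left out. Over all genes, that last count was 39 (62 with the replicate block, 65 with no filter) and the same count in KO cells 81 (158 and 123), and 7FTA added to TNFα in KO cells gave 1057 (659 with the 2 groups alone). With each library left out, the lowest counts were 182 of 288 genes for 7FTA in WT, 196 of 335 in KO, 501 of 779 for 7FTA added to TNFα in WT, 224 of 360 for the TNFα effect in KO minus WT with 7FTA, and 23 and 49 for the 7FTA effect with TNFα minus without it in WT and KO cells. The cause of these shifts was not tested.

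With the replicate block, values that had missed the threshold passed for BTC with 7FTA in WT (adjusted p = 0.0388), for ERBB2 and ERBB3 with 7FTA added to TNFα in WT (0.0328 and 0.0342), for TGFA in KO (0.0400, also without KO TNFα replicate 3, 0.0404), and for ERBB3 and EREG in the TNFα effect in KO minus WT with 7FTA (0.0340 and 0.0345). The replicate numbers were not taken to pair samples. Residuals of libraries with the same number correlated at -0.0649 to 0.119, in 0 of 28 pairs of groups were all correlations over 0.1, and 17 of 24 libraries correlated best with their own number, which is a hint from the data and not the design. Depth limits EGF, with 5 to 69 counts per library, and EPGN.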
